A study of Homo sapiens with 48 samples.

Results

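The forkhead box O (FOXO) genes FOXO1, FOXO3 and FOXO4 and 7 genes described as their targets (DEPP1, CCNG2, IRS2, PIK3IP1, KLHL24, SESN1 and SESN3) were followed through 8 groups of stimulated cells. They were picked by name, as 10 of the 60610 genes of the count table, with their abundance in these groups already known. Their values, and the calls made on them, are therefore given as a description, and nothing is supported with them. Poly(A) RNA was sequenced from 1 clone of HEK293, a line from human embryonic kidney, that was made to express the human angiotensin II receptor AT1R stably. In serum-free medium the cells stayed unstimulated (CON) or received EGF (10 µg/L), AngII (1 nM) or EGF+AngII, each for 6 h or 24 h, with 6 libraries per group. All groups thus share the introduced receptor, the absence of serum and the origin from a single clone, which limits them as a model of other cells.

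FOXO proteins are transcription factors that stay in the nucleus and raise their targets when insulin and growth factor signalling is low. When such signals activate PI3 kinase, the kinase AKT phosphorylates the FOXO proteins, which then bind 14-3-3 proteins and leave the nucleus, so that target transcripts decline. The targets include brakes on growth (SESN1, SESN3, CCNG2), parts of the insulin pathway itself (IRS2, PIK3IP1) and genes of autophagy and protein turnover (DEPP1, KLHL24). The mRNA values below measure neither phosphorylation nor the location of these proteins.

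The preferred FOXO binding sequence contains GTAAACA. This motif, read on both strands (TGTTTAC on the other), was searched in the 250 bases before each RefSeq transcription start (GRCh38.p14). It stood in 2.98% of all 35116 promoters, and in 1 of the 16 promoters listed for the 10 genes, that of DEPP1. The shorter core AAACA, which is contained in GTAAACA, stood in 40.4% of all promoters and in 10 of the 16. The DEPP1 promoter is shown because this gene has the widest range of values among the 10 and holds the longer motif. Of 30 further genes described as FOXO targets that have a listed promoter, 5 also hold it, in 5 of their 45 promoters. Of these, TXNIP and SELENOP fell under EGF+AngII at 6 h, while BCL2L11 (log2 change −0.46 ± 0.10, estimate ± SE), MXI1 (0.05 ± 0.14) and TSC22D3 (−0.72 ± 0.41) did not meet the call rule, which asks for a 1.5-fold change at an adjusted p under 0.01. CAT, RBL2 and BBC3, described as targets too, also fell under EGF+AngII at 6 h and are not among the 5 genes with the motif. The 30 genes with a listed promoter are not the 30 tested below, since some, such as FASLG, were too low to test. Windows of 47 bases are added for TXNIP and SELENOP, chosen after their values were seen. Capitals mark the motif, which begins 180 bases before the start in DEPP1, 124 in TXNIP and 45 in SELENOP. All are on the minus strand and are written 5′ to 3′ along the gene, at chr10:44978810-44979059, chr1:145996677-145996723 and chr5:42811911-42811957, in the same order.
DEPP1: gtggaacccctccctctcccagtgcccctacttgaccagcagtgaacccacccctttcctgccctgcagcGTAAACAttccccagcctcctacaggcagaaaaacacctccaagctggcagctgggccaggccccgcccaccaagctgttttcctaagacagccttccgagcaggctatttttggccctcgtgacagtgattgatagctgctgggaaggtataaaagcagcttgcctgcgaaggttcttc
TXNIP: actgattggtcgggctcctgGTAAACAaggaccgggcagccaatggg
SELENOP: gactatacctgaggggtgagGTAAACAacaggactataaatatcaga
A match describes these letters only, and no match says nothing of binding elsewhere.

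Of the 48 libraries, 10 were set aside. Of these, 8 formed 4 near-identical pairs, whose counts differed by less than sampling noise (chi-square per degree of freedom 0.397 to 0.505, against at least 2.02 for the 119 other pairs within a group). In 3 of the 4 pairs the partners carry different labels. The other 2, AngII 6 h replicate 6 and EGF+AngII 6 h replicate 6, had values that went against their labels in an earlier analysis of these data. The 119 other pairs within a group had a median chi-square per degree of freedom of 48.9. Lowest among them were AngII 6 h replicates 1 and 2 (2.02), EGF 6 h replicates 3 and 4 (3.32) and EGF+AngII 24 h replicates 1 and 2 (3.96). These were kept and counted as separate libraries. Statements on overlap below cover the libraries used only. Setting libraries aside by their values makes such separation more likely. The 38 libraries used held 17.8 to 29.96 M counts (median 21.7 M), and the 10 genes had 60 (PIK3IP1) to 5268 (FOXO3) counts in a library, so counting error differs between them. The lowest counts were those of PIK3IP1 (60 to 99) and DEPP1 (116 to 162) under EGF+AngII at 6 h, and FOXO1 had 209 to 383 in all libraries. The groups kept 4 (CON), 5 (AngII), 3 (EGF) and 4 (EGF+AngII) libraries at 6 h and 6, 5, 5 and 6 at 24 h, in the same order. The introduced AGTR1 was abundant in every library used (3962 to 15222 CPM, the counts of a gene per M counts of the library). EGFR (16.8 to 50.2 CPM), VIM (170 to 622), NEFM (2405 to 9529) and NEFL (595 to 1769), known from HEK293 cells, were also present, PAX2 was low (0.27 to 3.90), and the liver, leukocyte and red cell markers ALB, PTPRC and HBB stayed at or below 0.399 CPM. In bulk RNA, fewer cells with a transcript and less of it per cell cannot be told apart. Nothing states that the libraries came from separate cultures, so SD and p describe the spread between these libraries, which may be technical.

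Per kilobase of exon, SESN1 and FOXO3 were the most abundant of the 10 in CON at 6 h, with 23.8 ± 2.93 and 23.2 ± 2.53 CPM per kb (SD, n = 4). IRS2 (15.2 ± 1.60), KLHL24 (13.97 ± 1.17) and SESN3 (13.2 ± 1.64 CPM per kb) followed. FOXO4 (7.83 ± 0.411), DEPP1 (5.79 ± 1.70) and CCNG2 (5.01 ± 0.337) lay lower, and FOXO1 (2.08 ± 0.216) and PIK3IP1 (1.98 ± 0.280 CPM per kb) lowest. Neighbours within each of these sets overlapped between libraries. FOXO3 has a sequence copy, FOXO3B, to which 474 to 1065 counts per library were assigned, and FOXO1 has one with 2 to 29 (FOXO1B), so the level of FOXO3 in particular is uncertain.

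**Figure D1:**
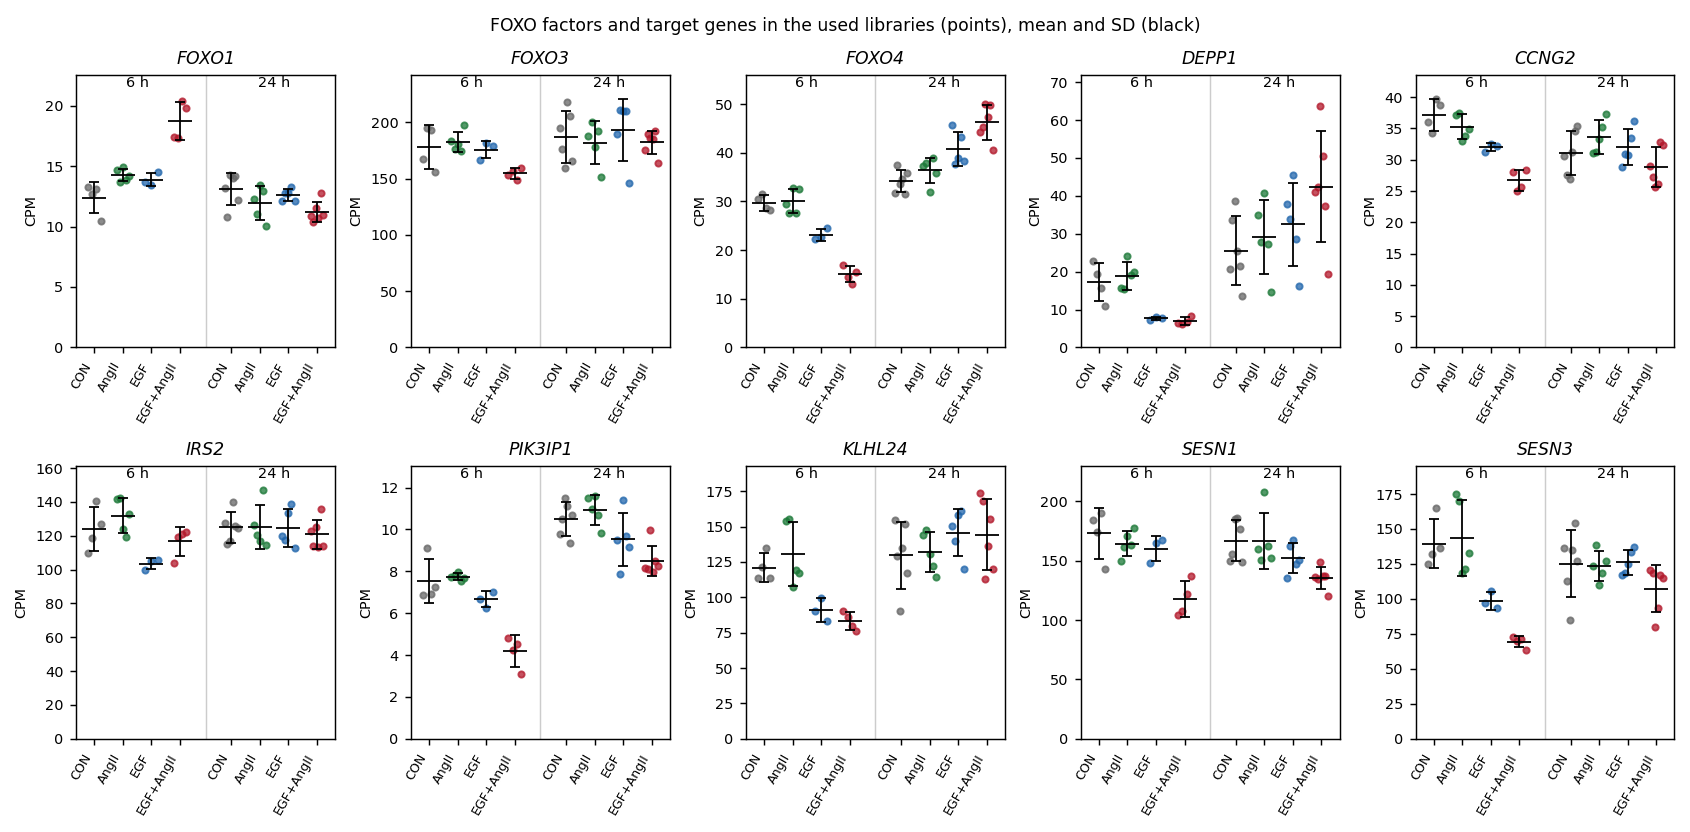
Abundance (CPM, linear axis from 0) of the 10 genes in each library used (points, coloured by treatment), with the mean and SD in black, for the 4 treatments at 6 h (left of the grey line) and 24 h (right). FOXO4 declined from 29.7 CPM in CON to 15.02 under EGF+AngII at 6 h and stood at 46.2 under EGF+AngII at 24 h, above every CON library of that time.

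The comparison with CON at each time shows how the transcripts stood after each stimulus. Under EGF+AngII at 6 h, FOXO4, DEPP1, PIK3IP1 and SESN3 were lower than in CON by 1.80- to 2.47-fold and FOXO1 was 1.51-fold higher. These 5 of the 10 genes met the call rule, a change of at least 1.5-fold at an adjusted p under 0.01 and a mean above 5 CPM. Among the 19626 genes tested, 6.45% were called higher and 5.53% lower. The 10 genes were chosen on this contrast among others, so nothing is read from the count. The same holds for 7 genes whose libraries lay below all CON libraries without overlap, beside 15.9% of all tested genes. The median log2 change was −0.55 over the 10 genes and −0.03 over all tested genes. With the 2 libraries of doubtful label in the fit (40 libraries), 3 of the 10 were called (FOXO4, PIK3IP1 and SESN3), and with all 48 libraries 4.

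The factors did not move alike. FOXO4 (ENSG00000184481, chrX:71095851-71103532; positions here are RefSeq genes on GRCh38.p14) read 30.4, 31.5, 28.6 and 28.2 CPM in the CON libraries at 6 h, 22.3, 22.7 and 24.5 under EGF, and 16.9, 14.5, 13.1 and 15.6 under EGF+AngII. The 3 groups do not overlap among the libraries used, and AngII alone (29.5, 27.7, 32.7, 27.7 and 32.6 CPM) overlapped CON. The library labelled EGF+AngII 6 h replicate 6, set aside for its doubtful label, had 25.98 CPM in a scaling over all 48 libraries. Kept in its labelled group, it would make EGF+AngII overlap EGF. On the log2 scale the difference from CON was 0.02 ± 0.08 under AngII, −0.36 ± 0.10 under EGF and −0.98 ± 0.09 under EGF+AngII (estimate ± SE, from the edgeR fit). FOXO4 was called in all 12 alternatives to this fit and without each of the 38 libraries in turn, with values from −1.04 to −0.78.

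FOXO1 went the other way at 6 h. This gene (ENSG00000150907, chr13:40555667-40666641) read 13.2, 12.7, 13.1 and 10.5 CPM in CON and 17.4, 17.3, 20.4 and 19.8 under EGF+AngII, without overlap. Under AngII (13.7 to 14.9 CPM) and EGF (13.5 to 14.5) it lay only just above the CON libraries. The log2 difference from CON was 0.60 ± 0.10 under EGF+AngII, close to the fold minimum, and FOXO1 was called in 6 of the 12 alternatives. FOXO3 (ENSG00000118689, chr6:108559825-108684774), the most abundant of the factors, stayed closest to CON. It read 168, 195, 193 and 156 CPM in CON and 153, 157, 149 and 160 under EGF+AngII, which overlap, with a log2 difference of −0.20 ± 0.10.

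Among the targets, DEPP1 (ENSG00000165507, chr10:44976128-44978809), a regulator of autophagy induced by progesterone and by FOXO factors, had the largest difference from CON. It read 22.9, 19.3, 15.8 and 11.04 CPM in CON at 6 h and 15.7, 15.4, 24.2, 19.2 and 19.99 under AngII. Under EGF it read 7.30, 8.05 and 7.86 CPM and under EGF+AngII 6.44, 6.21, 6.79 and 8.36. The EGF and EGF+AngII libraries overlap each other and lie below every CON and AngII library. The log2 difference from CON was 0.13 ± 0.29 under AngII, −1.15 ± 0.34 under EGF and −1.31 ± 0.32 under EGF+AngII. The CON libraries span 11.04 to 22.9 CPM. DEPP1 met the call rule under EGF+AngII but not under EGF, where 8 of the 12 alternatives called it.

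SESN3 (ENSG00000149212, chr11:95165513-95232475), one of the sestrins, stress-induced proteins that restrain mTORC1, formed a gradient. It read 125, 132, 165 and 136 CPM in CON, 97.2, 106 and 93.3 under EGF, and 72.9, 69.9, 71.6 and 63.5 under EGF+AngII. Each step is without overlap, with log2 differences from CON of −0.50 ± 0.15 and −1.01 ± 0.14. Under AngII, replicates 1 and 2, both from title run 1, read 175 and 170 CPM and the other 3 read 119, 121 and 133. This split was not particular to SESN3. For KLHL24 the same libraries read 154 and 156 CPM against 108, 119 and 117. Title runs are successive blocks of the numbered sample titles, each cycling through the treatments 1 time, and whether they were handled apart is not stated. CON 6 h replicate 6 was the only library used from title run 7, whose others were set aside. It gave the lowest CON values at 6 h of FOXO1 (10.5 CPM), FOXO3 (156), DEPP1 (11.04) and SESN1 (143). By a small margin it also gave those of FOXO4 (28.2) and KLHL24 (113). Without runs 7 and 8 FOXO1 was not called under EGF+AngII at 6 h.

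PIK3IP1 (ENSG00000100100, chr22:31281593-31292534), a membrane protein that inhibits PI3 kinase, differed mainly under EGF+AngII. It read 6.86, 9.12, 6.94 and 7.23 CPM in CON, 6.69, 6.26 and 7.02 under EGF and 4.83, 4.23, 4.55 and 3.10 under EGF+AngII. CON and EGF overlap, and EGF+AngII lies below both. The log2 difference from CON was −0.18 ± 0.13 under EGF and −0.85 ± 0.12 under EGF+AngII.

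The remaining targets differed less from CON. SESN1 (ENSG00000080546, chr6:108984309-109094846), a sestrin regulated by p53 and FOXO factors, read 185, 175, 191 and 143 CPM in CON and 104, 107, 122 and 137 under EGF+AngII, a log2 difference of −0.56 ± 0.11 without overlap. KLHL24 (ENSG00000114796, chr3:183635623-183684519), a substrate adaptor of a ubiquitin ligase, read 114, 121, 135 and 113 CPM in CON, 90.3, 99.7 and 83.1 under EGF and 90.1, 86.1, 79.4 and 76.0 under EGF+AngII. CON is separate from both stimulated groups, which overlap each other, with log2 differences of −0.41 ± 0.15 and −0.54 ± 0.14. CCNG2 (ENSG00000138764, chr4:77157207-77170060), an unusual cyclin that slows the cell cycle, read 34.2 to 39.6 CPM in CON, 31.2 to 32.5 under EGF and 24.95 to 28.3 under EGF+AngII, with log2 differences of −0.22 ± 0.10 and −0.47 ± 0.10. Without the fold minimum SESN1, KLHL24 and CCNG2 were also called, which made 8 of the 10 genes. Of all 19626 tested genes, 2071 were then called higher and 1626 lower. IRS2 (ENSG00000185950, chr13:109752695-109786583), an adaptor of the insulin receptor, was the exception among the targets. It was lower under EGF (99.8, 105 and 106 CPM) than in CON (110 to 141), but under EGF+AngII (104 to 122) it overlapped CON, with log2 differences of −0.26 ± 0.10 and −0.09 ± 0.09.

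**Figure D2:**
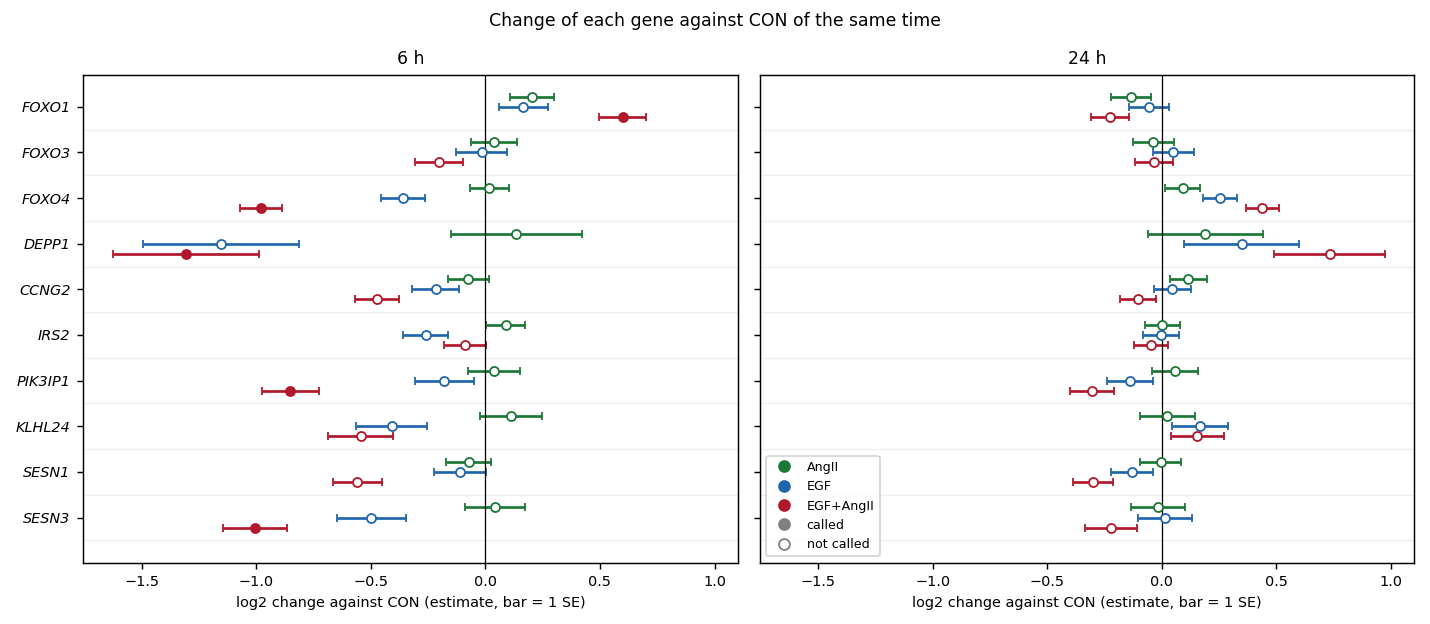
Log2 change of each gene against CON of the same time (horizontal axis, same scale in both panels; point = estimate, bar = 1 SE) for AngII, EGF and EGF+AngII at 6 h and 24 h, with filled points where the gene met the call rule. The 5 filled points all belong to EGF+AngII at 6 h, from −1.31 (DEPP1) to 0.60 (FOXO1).

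AngII alone left the 10 genes close to CON at 6 h, and 0 were called by edgeR and by DESeq2, with 1 of them at an unadjusted p under 0.05. Over all tested genes 0.459% were called higher and 0.0102% lower. Their log2 differences lay between −0.08 (CCNG2) and 0.20 (FOXO1). EGF alone also gave 0 called genes by edgeR (DESeq2 1, DEPP1), with 6 at an unadjusted p under 0.05, beside 1.62% of tested genes called higher and 0.321% lower. Here 6 of the 10 genes lay below all CON libraries without overlap, and 8.88% of tested genes did.

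Set against EGF, the joint stimulus shows what AngII added. FOXO4 (−0.62 ± 0.10 on the log2 scale) and PIK3IP1 (−0.67 ± 0.13) were called lower under EGF+AngII than under EGF, 2 of the 10 genes, beside 1.31% of all tested genes called lower and 1.62% higher. In the sets of 40, 46 and 48 libraries neither was called, and 1 of them was called without EGF+AngII replicate 3, EGF+AngII replicate 5 or EGF replicate 5. For DEPP1 and KLHL24 the estimates were small (−0.15 ± 0.35 and −0.14 ± 0.15), but the SE of DEPP1 is too wide to tell whether AngII made a difference. SESN1 (−0.45 ± 0.11) and SESN3 (−0.51 ± 0.15) were lower without a call. The libraries of 6 genes lay below all EGF libraries, as did 16.4% of tested genes. The interaction of both stimuli, which is 0 where the joint fold change is the product of the single ones, was called for FOXO4 (−0.64 ± 0.13), with 0.0917% of tested genes called above 0 and 0.138% below. Leaving out 1 of 15 libraries ended this call, namely CON replicates 3, 5 and 6, EGF replicates 3, 4 and 5, AngII replicates 1, 2, 3 and 5 or EGF+AngII replicates 2, 3 and 5 at 6 h, or CON replicate 6 or EGF+AngII replicate 2 at 24 h. PIK3IP1 (−0.71 ± 0.17) and SESN3 (−0.55 ± 0.20) had interactions of like size that were not called.

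At 24 h the pattern was another one. None of the 10 genes was called by edgeR or by DESeq2 under AngII (0 at an unadjusted p under 0.05), EGF (1) or EGF+AngII (5). Over all tested genes the share called was 0% under AngII in either direction, 0.163% higher and 0.0815% lower under EGF, and 1.70% higher and 1.20% lower under EGF+AngII. FOXO4 was now highest under EGF+AngII (lowest 40.6, median 46.4, highest 50.1 CPM) and lay above all CON libraries (31.6, 34.1 and 37.4). Under EGF it read 45.7, 37.7, 38.9, 43.2 and 38.2 CPM, also above CON, and the log2 differences were 0.25 ± 0.08 under EGF and 0.44 ± 0.07 under EGF+AngII, below the fold minimum. DEPP1 read 13.5 at the lowest, 23.5 at the median and 38.5 CPM at the highest in CON and 19.5, 41.6 and 63.8 under EGF+AngII, which overlap, with a log2 difference of 0.73 ± 0.24.

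In each 24 h group the lowest DEPP1 value came from replicate 6, of title run 8, with 13.5 CPM in CON, 14.6 under AngII, 16.2 under EGF and 19.5 under EGF+AngII. Within each of the 4 runs at 24 h the EGF+AngII mean was above the CON mean, 1.54-fold in run 2, 1.79-fold in run 3, 1.74-fold in run 6 and 1.44-fold in run 8. With the title run as a block DEPP1 was called under EGF+AngII at 24 h (log2 difference 0.71). It was also called without runs 7 and 8 (0.77), without CON replicate 3 or EGF+AngII replicate 6, at an adjusted p under 0.05, and with no filter on low counts. FOXO4 behaved alike within runs, with EGF+AngII above CON 1.30-, 1.43-, 1.58- and 1.13-fold in runs 2, 3, 6 and 8. At 6 h only runs 4 and 5 hold both groups among the libraries used. There the EGF+AngII to CON ratios were 0.423 and 0.546 for FOXO4, 0.322 and 0.531 for DEPP1, 0.556 and 0.385 for SESN3, 0.569 and 0.447 for PIK3IP1 and 1.57 and 1.51 for FOXO1.

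**Figure D3:**
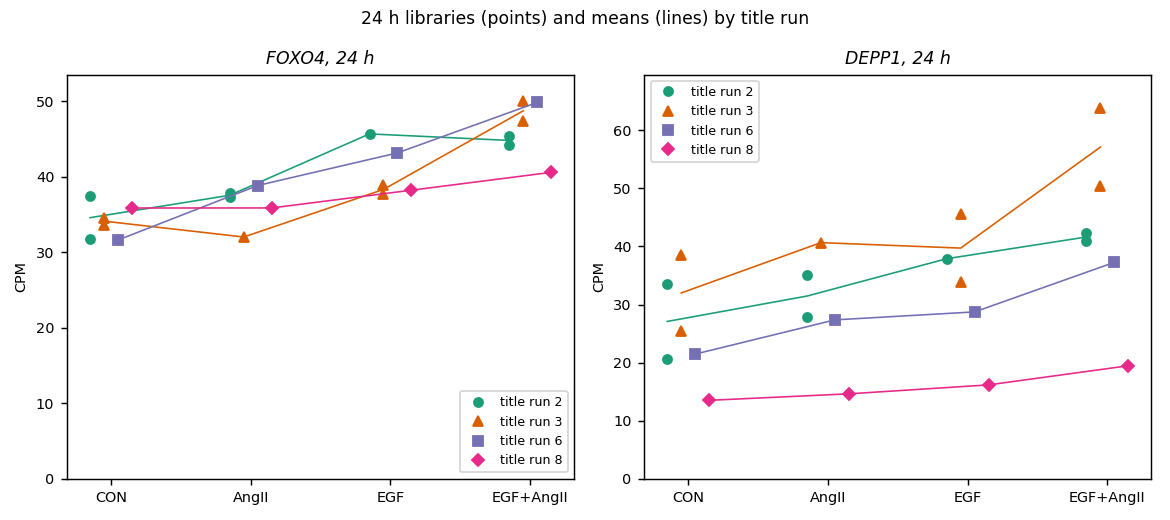
FOXO4 and DEPP1 at 24 h (CPM, linear axis from 0) by treatment, with a point for each library and a line through the means of each title run. The lines lie apart for DEPP1, with run 8 lowest (13.5 to 19.5 CPM), and each of the 4 lines ends higher under EGF+AngII than in CON in both panels.

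The other genes moved little at 24 h. Under EGF+AngII, SESN1 (lowest 120, median 137, highest 149 CPM) lay just below CON (149, 166 and 186), with a log2 difference of −0.30 ± 0.09. PIK3IP1 was −0.31 ± 0.10, FOXO1 −0.23 ± 0.08 and SESN3 −0.22 ± 0.11 from CON on the log2 scale, each with overlapping libraries. FOXO3, CCNG2, IRS2 and KLHL24 differed from CON by −0.10 (CCNG2) to 0.15 (KLHL24) on that scale. Against EGF at 24 h 0 of the 10 were called by either tool (1 at an unadjusted p under 0.05), beside 0.0815% of tested genes called higher and 0.0102% lower. The interaction at 24 h was called for 0 of the 10 by either tool (1 at an unadjusted p under 0.05) and for 0% of all tested genes.

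The change of the response between the times was compared directly, as the difference from CON at 24 h minus that at 6 h. For EGF+AngII, DEPP1 (2.04 ± 0.40), FOXO4 (1.42 ± 0.12), SESN3 (0.78 ± 0.18) and KLHL24 (0.70 ± 0.18) were called higher and FOXO1 (−0.82 ± 0.13) was called lower, on the log2 scale. These are 5 of the 10 genes, beside 5.50% of tested genes called higher and 6.08% lower. For EGF alone, FOXO4 (0.61 ± 0.12) was called, beside 0.255% higher and 0.780% lower of all, while DEPP1 had a larger and less certain difference (1.501 ± 0.42). The FOXO4 call was lost without CON 6 h replicate 4, EGF 6 h replicate 3 or 4, or EGF 24 h replicate 1. In CON itself 0 of the 10 were called by either tool between 24 h and 6 h (4 at an unadjusted p under 0.05), beside 4.77% higher and 1.96% lower of all tested genes. The largest CON differences were DEPP1 (0.57 ± 0.28) and PIK3IP1 (0.48 ± 0.11, 9.36 to 11.5 CPM at 24 h against 6.86 to 9.12 at 6 h). Time cannot be told apart from title runs, since no run holds both times.

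A longer list of 36 genes described as FOXO targets was compared, of which 30 could be tested and 6 were too low (IGFBP1, G6PC1, PPARGC1A, TNFSF10, FASLG and TRIM63, at most 0.357 CPM in any library). Under EGF+AngII at 6 h, 10 of the 30 changed (edgeR, Benjamini-Hochberg adjusted), 5 in each direction, beside 6.45% higher and 5.53% lower of all tested genes, with a median log2 change of −0.09 beside −0.03 over all tested genes. The 5 that fell were TXNIP, a brake on glucose uptake, the antioxidant genes CAT and SELENOP, the pocket protein gene RBL2 and the pro-apoptotic BBC3. The 5 that rose were PCK1, a gluconeogenic enzyme, the cell cycle inhibitor CDKN1A, the stress gene GADD45A, the mitophagy receptor BNIP3 and S1PR1. TXNIP averaged 61.1 ± 10.5 CPM in CON (SD, n = 4) and 23.4 ± 3.14 under EGF+AngII (n = 4), a log2 change of −1.39 ± 0.29 (edgeR adjusted p = 0.000205). RBL2 fell from 55.7 ± 10.3 to 24.5 ± 2.14 CPM, a log2 change of −1.18 ± 0.15 (edgeR adjusted p = 5.99e-08). SELENOP (−1.14 ± 0.25) and BBC3 (−1.05 ± 0.18) fell to like extents, and PCK1 rose from 1.46 ± 0.394 to 6.19 ± 1.92 CPM (2.09 ± 0.43, edgeR adjusted p = 0.000169). With the doubtful labels included (40 libraries), 6 of the 30 were called.

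At 24 h under EGF+AngII, 3 of the 30 were called, beside 1.70% higher and 1.20% lower of all tested genes. TXNIP rose, from 164 ± 44.3 to 305 ± 96.1 CPM (SD, n = 6 each), a log2 change of 0.89 ± 0.23 (edgeR adjusted p = 0.00425), and ERBB3, a receptor of the EGFR family, rose from 2.77 ± 0.621 to 6.27 ± 0.456 CPM (1.18 ± 0.16, adjusted p = 1.6e-06 by edgeR). BNIP3 fell. The median log2 change of the list was 0.11, beside −0.02 over all tested genes. With all 48 libraries, with 40, or with only the groups compared in the fit, 1 of the 30 was called. Under EGF, CDKN1A rose at 6 h (1 of 30), beside 1.62% higher and 0.321% lower of all tested genes. At 24 h 0 were called under EGF (3 at an unadjusted p under 0.05, DESeq2 0), beside 0.163% higher and 0.0815% lower. Under AngII 0 were called at 6 h (5 at an unadjusted p under 0.05, DESeq2 0), beside 0.459% higher and 0.0102% lower. At 24 h 0 were called under AngII (0 at that p, DESeq2 0), beside 0% of all tested genes. The counts under EGF alone and AngII alone lie near the shares. Those under EGF+AngII lie above them, but the list was chosen with earlier results of these data known. Nothing is read from any of these counts. The means of TXNIP and DEPP1 thus both stood below CON at 6 h and above it at 24 h under EGF+AngII. At 24 h the TXNIP libraries overlapped (75.7 to 191 CPM in CON, 127 to 412 under EGF+AngII). In CON itself 3 of the 30 were called higher at 24 h than at 6 h, beside 4.77% of tested genes higher and 1.96% lower. They were TXNIP (1.43 ± 0.26), BNIP3 (0.98 ± 0.20) and TSC22D3 (1.65 ± 0.35). The difference of the TXNIP response between the times was 2.28 ± 0.37 (edgeR adjusted p = 9.56e-06).

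**Figure D4:**
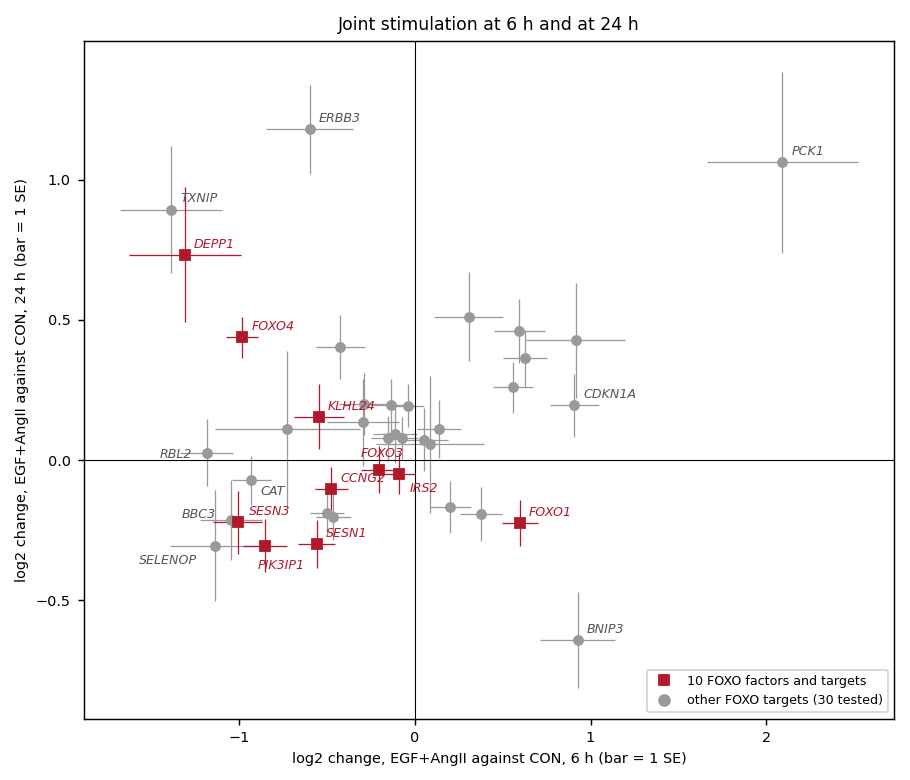
Log2 change under EGF+AngII against CON at 6 h (horizontal) and at 24 h (vertical), with 1 SE each way, for the 10 genes (red squares) and the 30 tested other FOXO targets (grey circles). DEPP1, FOXO4 and TXNIP lie among others in the upper left field, with estimates below 0 at 6 h and above 0 at 24 h, and FOXO1 and BNIP3 lie among others in the lower right.

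Transcripts of the route that controls FOXO proteins were followed in 2 further lists. Of 23 tested genes of the insulin and PI3K-AKT route (of 24), 5 were called under EGF+AngII at 6 h, 4 higher and 1 lower, beside 6.45% and 5.53% of all tested genes. The PI3 kinase catalytic subunits PIK3CD (3.29 ± 0.618 to 6.70 ± 0.791 CPM, log2 change 1.02 ± 0.21) and PIK3CA (0.69 ± 0.17), the AKT phosphatase PHLPP2 (0.80 ± 0.13) and the AKT inhibitor TRIB3 (0.85 ± 0.14) rose, and the mTOR complex subunit MLST8 (−0.89 ± 0.18) fell, with edgeR adjusted p from 3.65e-06 to 0.00153. At 24 h PIK3CD and the lipid phosphatase INPP4B rose and the regulatory subunit PIK3R3 fell under EGF+AngII (1.70% higher and 1.20% lower of all tested genes), and INPP4B also rose under EGF (0.74 ± 0.14, edgeR adjusted p = 0.00276). The list's median log2 change under EGF+AngII was 0.16 at 6 h and 0.02 at 24 h, beside −0.03 and −0.02 over all tested genes.

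Of 20 genes for proteins that bind or modify FOXO factors, 2 were called under EGF+AngII at 6 h, both higher, which is close to the share over all tested genes (6.45% higher and 5.53% lower). The 14-3-3 gene YWHAZ rose from 613 ± 34.7 to 1157 ± 133 CPM, a log2 change of 0.92 ± 0.10 (edgeR adjusted p = 2.09e-09), and STK4, a kinase that phosphorylates FOXO proteins under stress, rose by 0.67 ± 0.11 (adjusted p = 7.61e-06 by edgeR). The list's median log2 change was 0.26 at 6 h, beside −0.03 over all tested genes, and at 24 h 0 of its genes were called (7 at an unadjusted p under 0.05 by edgeR). Among relatives of the 10 genes under EGF+AngII at 6 h, the sestrin SESN2 fell from 55.2 ± 6.12 to 35.7 ± 4.50 CPM (−0.63 ± 0.14, edgeR adjusted p = 0.000411), and CCNG1, the other G-type cyclin, fell from 361 ± 87.9 to 171 ± 15.7 CPM (−1.08 ± 0.18, edgeR adjusted p = 9.87e-06). FOXO6, the remaining family member, was not called against CON at either time and averaged 5.19 ± 0.899 CPM in CON and 5.92 ± 0.634 under EGF+AngII at 6 h.

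The profile of the 7 targets over the 8 groups was then compared with that of 12407 other genes above 5 CPM in at least 1 group. The genes most like the mean standardised profile were WDR17 (Pearson r = 0.99), NADK2 (0.98), ZFP14 (0.98), KCTD7 (0.98) and ZNF75D (0.98), over 8 group means of log2(CPM + 1). In all, 247 genes had an r above 0.9. The group means share libraries and scaling, so r describes likeness in these 8 means only. The 7 targets did not all run alike. Pearson r between pairs of them over these means ranged from 0.18 (DEPP1 and CCNG2) to 0.97 (DEPP1 and KLHL24). Of the 10 genes, SESN3 (0.96) and KLHL24 (0.89) lay closest to the mean profile, and FOXO1 ran against it (−0.78). SESN3 and KLHL24 are themselves part of that mean, which raises their r. FOXO4 (0.82) and FOXO3 (0.87), which are not in that mean, ran with it but lay below the 0.9 that those 247 genes exceeded. The 10 genes were chosen with these group values known, so nothing is read from their r.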

How the data were processed

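The authors sequenced poly(A) RNA on a NovaSeq6000, mapped the reads to hg38 with HISAT2 2.1.0 and deposited raw counts per Ensembl gene from featureCounts, without normalisation. Whether strand was used in counting, and how multiply mapped reads were handled, is not given in the sources used here, so overlapping and copied genes are uncertain. The sample labels gave the groups. Replicate numbers follow accession order and pair nothing.

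The members, lists and tests were chosen with earlier results of these data known. Counts of 38 libraries were fitted with edgeR 4.0.16 (R 4.3.3; filterByExpr by group, TMM factors, 1 quasi-likelihood fit over 8 groups, 19626 genes), with Benjamini-Hochberg adjustment over all tested genes. A gene was called at an adjusted p under 0.01, at least 1.5-fold change and a mean above 5 CPM (in the reference group for a fall, in the stimulated group for a rise, and the highest group for interactions and differences between times). CPM values use TMM factors. Exon lengths came from GENCODE v44 lifted to an older genome build, not from the annotation used for counting on hg38. Promoters came from RefSeq (GRCh38.p14). The fit was tested on simulated counts without title runs, near-identical libraries or wrong labels, so that test does not cover these problems.

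Named genes were the 10 members, of each further list the genes called in at least 1 of 6 comparisons with CON (values for at most 6 per list), and the 5 genes most like the target profile. The alternatives were 48, 46 or 40 libraries, DESeq2 1.42.0, RLE factors, no filter, an adjusted p under 0.05, no fold or abundance minimum, only the groups compared, title runs as a block, leaving out each library and, chosen after seeing the data, leaving out title runs 7 and 8.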

Additional observations from a re-analysis of the deposited data

Results flagged for a closer look

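Within groups of 4 to 6 libraries, 4 of 70 groups tested had a value far from the others, and chance flags about 1 in 20. They were IRS2 in EGF+AngII 6 h replicate 1 (103.7 CPM, the others 119 to 122), PIK3IP1 in CON 6 h replicate 4 (9.12 CPM, the others 6.86 to 7.23), PIK3IP1 in EGF+AngII 24 h replicate 3 (9.95 CPM, the others 7.97 to 8.50) and SESN1 in AngII 24 h replicate 3 (208 CPM, the others 150 to 162).

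The response to EGF+AngII at 24 h minus that at 6 h met the call rule for DEPP1 (log2 difference 2.04), FOXO4 (1.42), SESN3 (0.78), KLHL24 (0.70) and FOXO1 (−0.82). The response to EGF did so for FOXO4 (0.61). These genes were chosen with their values known, so the differences are descriptions.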

How the results depend on the processing

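No paired analysis was possible by replicate number, because these numbers were given in accession order and pair no samples. Title runs were used as a block instead. The number of the 10 genes called moved with the settings as follows. EGF at 6 h went from 0 to 1 (DEPP1) with all 48 libraries, 46 libraries, DESeq2, no filter, an adjusted p under 0.05, only the groups compared, title runs as a block and without title runs 7 and 8. EGF+AngII at 6 h went from 5 to 3 with 40 libraries and to 4 with 48, 46 or only the groups compared. With no fold minimum it gave 8, where 3697 of all 19626 tested genes were called, beside 2351. EGF+AngII at 6 h gave 5 with title runs as a block and without runs 7 and 8, with KLHL24 or SESN1, in this order, in place of FOXO1. EGF+AngII at 24 h gave 1 with no filter, an adjusted p under 0.05, no fold minimum, title runs as a block and without runs 7 and 8. EGF+AngII against EGF at 6 h gave 0 with 48, 46 or 40 libraries, 1 with only the groups compared, 3 with title runs as a block and 4 with no fold minimum, beside 2. The interaction at 6 h gave 0 with 48, 46 or 40 libraries and with no filter, and 2 at an adjusted p under 0.05. CON at 24 h against 6 h gave 1 with no fold minimum. The EGF response between times gave 2 with 48 libraries, 3 with 46, 0 with 40 or with only the groups compared, 2 at an adjusted p under 0.05 and 2 without runs 7 and 8, beside 1, and the EGF+AngII response gave 3 with 48 or 40 libraries and 6 with 46 or no fold minimum, beside 5. Leaving out single libraries gave 4 to 6 for EGF+AngII at 6 h, 4 to 6 for its response between times, 1 to 2 against EGF at 6 h, and 0 to 1 for the interaction at 6 h, EGF+AngII at 24 h and the EGF response between times. No log2 change of a called gene turned sign. Over all genes, the calls under EGF at 6 h were 121 with 40 libraries and 620 with 46, beside 381, and those of EGF+AngII against EGF at 6 h were 33 with 40 and 64 with 48, beside 574. The cause of these shifts was not tested. Depth limits PIK3IP1 most, with 60 counts in its lowest library.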

Other observations

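The 2 libraries of doubtful label stood apart in the members as well. In a scaling over all 48 libraries, the library labelled AngII 6 h replicate 6 had 15.8 CPM of FOXO4, 4.39 of DEPP1 and 70.0 of SESN3, whereas the library labelled EGF+AngII 6 h replicate 6 had 25.98, 14.5 and 146 CPM. The latter also had 10.7 CPM of FOXO1. Kept in its labelled group, it would make that group overlap CON for DEPP1, SESN3 and FOXO1 among others, and EGF for FOXO4. In the near-identical pairs, CON 6 h replicate 1 and EGF 24 h replicate 2 had 28.6 and 28.6 CPM of DEPP1, and EGF 6 h replicate 1 and EGF+AngII 6 h replicate 4 had 6.28 and 6.23.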
